A study of Mus musculus with 4 samples.

Results

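The nuclear-encoded subunits of the mitochondrial respiratory chain were described in RNA sequencing libraries of mouse colonic epithelial cells. They were taken by gene symbol, as the Nduf, Uqcr and Atp5 genes, the Cox4 to Cox8 genes, Sdha to Sdhd and Cyc1, with a mean over the 4 libraries of at least 1 FPKM (fragment counts scaled to transcript length and library size). Of 91 matching genes, 89 met this level, out of 12274 genes that did so among 17604 listed. They comprised 36 subunits of complex I, 4 of complex II, 9 of complex III, 14 of complex IV, 15 of complex V, 8 assembly factors and 3 paralogues or associated factors. Cox6a2 and Cox8b, the muscle isoforms of 2 complex IV subunits, fell below the level, with means under 1 FPKM. The nearest gene above it was Cox4i2, with a mean of 1.73 FPKM.

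The respiratory chain sits in the inner mitochondrial membrane. Complex I takes electrons from NADH and complex II takes them from succinate, complex III passes them by way of cytochrome c to complex IV, which reduces oxygen, and complex V uses the proton gradient so formed to make ATP. Some subunits of complexes I, III, IV and V are encoded by the mitochondrial genome and all others by nuclear genes, so that subunits from both genomes are assembled together. Colonocytes rely on this chain to oxidise butyrate, their main fuel.

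Colonic cells of wild-type and Stat4-/- mice, both labelled C57BL/6, had attached to Matrigel for 24 h in medium with serum. Stat4-/- mice lack a transcription factor that cytokine receptors activate. Each genotype was studied without treatment (control) or with LIF (leukemia inhibitory factor) at 20 ng/ml, which signals through the gp130 receptor chain. The labels give neither the age of the mice nor the time in LIF of a given sample. There was 1 library in each of the 4 groups, so that no group has a replicate of its own, and a difference between 2 libraries has no replicate check. Values for the 4 libraries are given with wild type first and Stat4-/- second, and within each genotype the control before LIF.

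Stat4 was at 19.7, 20.5, 2.01 and 2.98 FPKM, low in both libraries labelled Stat4-/-. The depth, estimated from the steps between low FPKM values, was about 24.3, 22.0, 23.2 and 27.8 M fragments. General epithelial markers summed to between 7372 and 8165 FPKM in every library. Markers of smooth muscle (178, 169, 244 and 220 FPKM summed over 5 genes), endothelium (174, 168, 201 and 211 FPKM over 4 genes) and fibroblasts (270 to 280 FPKM over 6 genes) were also measured, so the libraries were not of epithelial RNA alone, and in bulk RNA fewer cells of a type and less RNA per cell cannot be told apart. Y-linked Ddx3y was at 5.86, 6.34, 0.05 and 0.07 FPKM, so that the sex of the mice and the Stat4 genotype cannot be told apart.

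Respiratory chain genes were expressed well above most genes. The median of their mean levels was 60.2 FPKM, against 11.8 FPKM for all tested genes, and 78 of the 89 lay above the latter value. Their summed FPKM was 7285, 7789, 7715 and 8085, which is 1.74, 1.81, 1.81 and 1.86% of all FPKM in the table. The lowest sum belonged to the untreated wild-type library and the highest to the Stat4-/- LIF library. FPKM is per length, so levels can be compared between genes. By the median of mean levels the order was complex IV (179 FPKM), complex V (139 FPKM), complex III (84.5 FPKM), complex II (58.3 FPKM) and complex I (47.0 FPKM), with assembly factors at 7.47 FPKM. The ranges of neighbouring complexes in that order overlap.

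**Figure D1:**
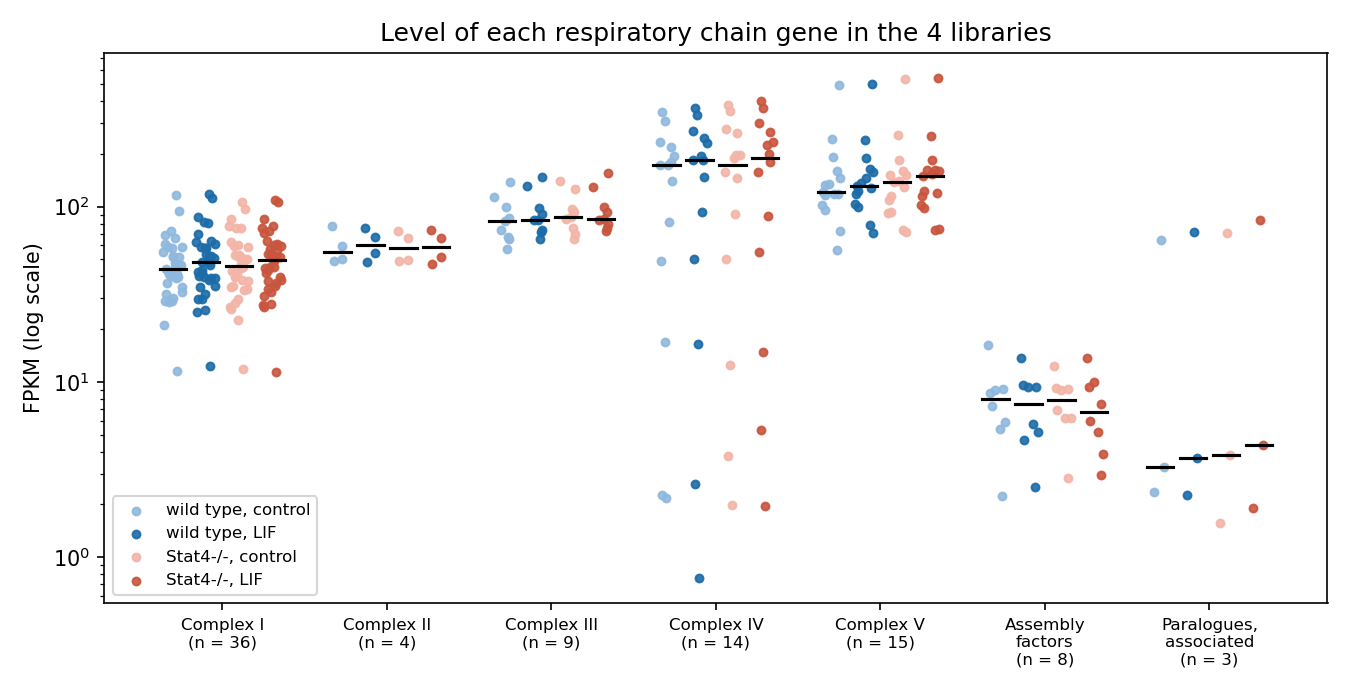
FPKM (log scale) of each of the 89 genes in the 4 libraries, by complex, with a bar at the median of each library and group. Complexes IV and V lie highest and assembly factors lie low, in all 4 libraries, and 3 complex IV isoform genes (Cox7a1, Cox6b2 and Cox4i2) lie apart below the others.

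Within complex I, the means ran from 11.8 FPKM for Ndufa11, a membrane arm subunit, to 112 FPKM for Ndufb9 in the same arm, a range of 9.55-fold. Ndufb9 was at 117, 118, 106 and 109 FPKM. Next came Ndufa6 (94.7, 112, 96.7 and 106 FPKM) and Ndufa12 (68.9, 87.7, 84.5 and 85.1 FPKM), both of the module that oxidises NADH. The catalytic subunits were not the most abundant: Ndufv1, which binds NADH, was at 44.1, 40.2, 42.7 and 44.5 FPKM, and Ndufs1, the large iron-sulfur subunit, at 28.8, 29.8, 26.2 and 26.8 FPKM. The medians of the NADH-oxidising N module, the ubiquinone-reducing Q module and the membrane arm were 47.9, 49.1 and 46.5 FPKM.

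Complexes II and III had the narrowest ranges of the 5 complexes. The 4 genes of complex II, which is also succinate dehydrogenase of the tricarboxylic acid cycle, ranged over 1.55-fold, from Sdha, the flavoprotein (48.7, 48.3, 49.0 and 47.3 FPKM), to Sdhd, a membrane anchor (77.2, 75.6, 72.9 and 73.5 FPKM). Between them were Sdhb, the iron-sulfur subunit (59.9, 67.4, 66.5 and 66.1 FPKM), and Sdhc, the other anchor (50.5, 54.1, 49.9 and 51.8 FPKM). The 9 genes of complex III ranged over 2.09-fold. Uqcrb was at 139, 147, 126 and 155 FPKM, Uqcrh at 114, 130, 139 and 129 FPKM, and the core protein gene Uqcrc2 at 99.6, 97.6, 97.1 and 99.7 FPKM. Uqcr11, the lowest, was at 57.5, 65.6, 75.4 and 72.7 FPKM, with both Stat4-/- libraries above both wild-type libraries.

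In complex IV the ubiquitous isoforms made up nearly all of the mRNA of each isoform pair other than Cox7a1 and Cox7a2. Cox4i1, whose product is needed early in assembly of the complex, was at 309, 335, 352 and 363 FPKM, and Cox4i2, an isoform known from lung and from cells in low oxygen, at 2.19, 0.76, 1.99 and 1.97 FPKM, which is 0.704, 0.227, 0.563 and 0.539% of the pair. Cox6b2, known as the testis isoform, was 1.14, 1.12, 1.87 and 2.23% of the sum with Cox6b1. Cox6a2 was at 1.12, 0.48, 0.72 and 0.27 FPKM beside Cox6a1 at 344, 364, 381 and 401 FPKM. Cox8b was listed at 0 in the wild-type control library and at 0.88, 0.12 and 0.10 FPKM in the others, beside Cox8a at 217, 245, 263 and 268 FPKM. Only the heart and muscle isoform Cox7a1 was a sizeable part of its pair, with 17.3, 15.1, 12.1 and 14.3% of the sum with Cox7a2.

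Complex V was led by the catalytic beta subunit gene Atp5b (494, 502, 538 and 541 FPKM), the most abundant of all 89 genes, and the alpha subunit gene Atp5a1 (242, 240, 258 and 254 FPKM). The gamma subunit gene Atp5c1 of the central stalk was at 95.1, 99.6, 92.9 and 97.9 FPKM. The genes Atp5g1, Atp5g2 and Atp5g3 encode the same mature c subunit of the membrane rotor. Atp5g1 was at 72.3, 71.1, 72.0 and 74.8 FPKM and Atp5g3 at 191, 188, 186 and 183 FPKM. Atp5g3 contributed 50, 46.5, 46.7 and 44.6% of their sum and Atp5g2 contributed 31, 35.9, 35.2 and 37.2%. The share of Atp5g2 was lowest in the wild-type control library.

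Assembly factors stood low, from Ndufaf2 (16.3, 13.7, 12.3 and 13.7 FPKM), Ndufaf4 (9.03, 9.31, 8.97 and 10 FPKM) and Atp5sl (8.69, 9.62, 9.26 and 9.33 FPKM) to Ndufaf5 (2.23, 2.50, 2.83 and 2.94 FPKM). Among paralogues, Cox7a2l, which encodes a factor linked to supercomplexes of complexes III and IV, was at 64.5, 71.2, 70.9 and 83.7 FPKM. Ndufa4, once counted to complex I and now to complex IV, was at 140, 147, 145 and 179 FPKM, its paralogue Ndufa4l2 at 3.27, 3.69, 3.82 and 4.38 FPKM, and Atp5s at 2.34, 2.27, 1.56 and 1.91 FPKM.

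With LIF, small upward differences prevailed among the respiratory chain genes of both genotypes. In wild type, 67 of 89 genes were higher in the LIF library than in the control library, against 50.9% of all tested genes, and the median difference of log2(FPKM + 1) was 0.08, against 0.00 over all genes. In Stat4-/-, 64 of 89 were higher, against 48% of all genes, with a median of 0.04, against -0.01. The difference was above 0 in both genotypes for 51 of 89 genes, against 28.8% of all genes, and below 0 in both for 9, against 29.3%. The LIF differences of the genotypes share no library. For 33 genes both LIF libraries lay above both control libraries, against 12.8% of all genes, and for 5 they lay below, against 14.2%. Of 142 genes outside the chain with transcripts under 1000 bases and a mean of at least 50 FPKM, 66.2% were above 0 in both genotypes and 13.4% below. For the 26 members of that kind the shares were 69.2 and 3.85%. Both LIF libraries lay above both controls for 29.6% of those other genes and 42.3% of those members, and below for 4.23 and 0%. Measured as log2(FPKM + 1), 0 of 89 members differed by at least 2-fold, which 0.13% of all genes did for LIF in wild type, 0.122% for LIF in Stat4-/-, 0.603% for genotype without LIF and 0.75% for genotype with LIF. As plain FPKM ratios, Cox4i2 exceeded 2-fold (0.347 for LIF in wild type and 2.59 for genotype with LIF) and Cox6b2 did so for genotype with LIF (2.03), both at low levels.

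The effect of LIF over both genotypes was tested with limma on log2(FPKM + 1), with the 2 LIF libraries set against the 2 controls and genotype as a second term. This fit leaves 1 residual degree of freedom and counts any difference in LIF effect between genotypes as error. At a Benjamini-Hochberg adjusted p under 0.05 over all genes, 3 of 89 respiratory chain genes rose, against 0.701% of all genes, and 0 fell, against 0.122%. Among 142 short and abundant genes outside the chain, with transcripts under 1000 bases and a mean of at least 50 FPKM, 16.2% rose, against 7.69% of the 26 members of that kind. At an unadjusted p under 0.05 there were 29 members, or 32.6%, against 12.5% of all genes. Cox6b1 and Cox6c belong to complex IV and Ndufb4 to complex I.

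Cox6b1, which encodes a subunit on the intermembrane-space face of complex IV near the cytochrome c site, was at 195, 231, 198 and 232 FPKM. Both LIF libraries stood above both controls, and the controls of the genotypes were nearly equal. It rose by 0.24 on the log2 scale (SE 0.037, limma adjusted p = 0.0218), higher with LIF in 2 of 2 genotypes. Ndufb4, a subunit of the complex I membrane arm, was at 51.7, 64.0, 50.4 and 61.0 FPKM, again without overlap, and rose by 0.29 (SE 0.049, limma adjusted p = 0.0294). Cox6c, a small subunit of complex IV, was at 173, 195, 190 and 225 FPKM. It rose by 0.21 (SE 0.039, limma adjusted p = 0.0391) and was higher with LIF in each genotype. Its Stat4-/- control library was below its wild-type LIF library, so the treatments did not overlap. These calls were lost in most alternative fits: Cox6b1 and Ndufb4 each passed in 2 of 7 and Cox6c in 1 of 7, with limma adjusted p from 0.0187 to 0.547 for Cox6b1, from 0.0275 to 0.547 for Ndufb4 and from 0.0322 to 0.547 for Cox6c.

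Among genes that did not pass, Atp5g2 came next (118, 145, 140 and 153 FPKM, coefficient 0.21, limma adjusted p = 0.0711). Cox7c, a small subunit of complex IV (235, 269, 277 and 300 FPKM), Ndufs5 of complex I (46.3, 52.4, 50.7 and 60.1 FPKM) and Ndufa6 had coefficients of 0.15, 0.21 and 0.18, each with a limma adjusted p of 0.0938. The lowest coefficients belonged to Cox4i2 (-0.43, SE 0.192) and to the assembly factors Ndufaf6 (5.94, 5.19, 6.26 and 3.87 FPKM, -0.37, SE 0.120) and Ndufaf3 (7.24, 4.69, 6.88 and 6.02 FPKM, -0.35, SE 0.112). None of these 3 passed, and at such levels counting error is wide. The differences of Ndufaf3 in wild type (-0.53, counting error 0.147) and Ndufaf6 in Stat4-/- (-0.58, counting error 0.176) exceeded 2 times that error. Their differences in the other genotype did not. For Cox4i2 this comparison cannot decide, as log2(FPKM + 1) shrinks differences at low levels and the counting error is not shrunk. Its plain FPKM ratios for LIF were 0.347 in wild type and 0.99 in Stat4-/-, with counting errors of 0.472 and 0.337.

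The genes at either end of each complex for LIF are given with their values. In complex I the lowest coefficient was that of Ndufa10 in the membrane arm (39.1, 38.1, 38.0 and 35.2 FPKM, -0.07). In complex III, Uqcrb (0.19) and Uqcrq (65.2, 73.6, 69.7 and 79.4 FPKM, 0.18) were highest and the core protein gene Uqcrc1 (82.7, 83.5, 86.9 and 85.0 FPKM, -0.01) was lowest. For Uqcrq both LIF libraries lay above both controls, while Uqcrc1 differed little among libraries. In complex V the highest were Atp5k (0.24) and Atp5g2, and the lowest Atp5e (-0.02) and Atp5g3 (-0.02). Cox6b2 had the highest coefficient in complex IV (0.28, SE 0.125) and did not pass, and Ndufaf4 the highest among assembly factors (0.09).

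**Figure D2:**
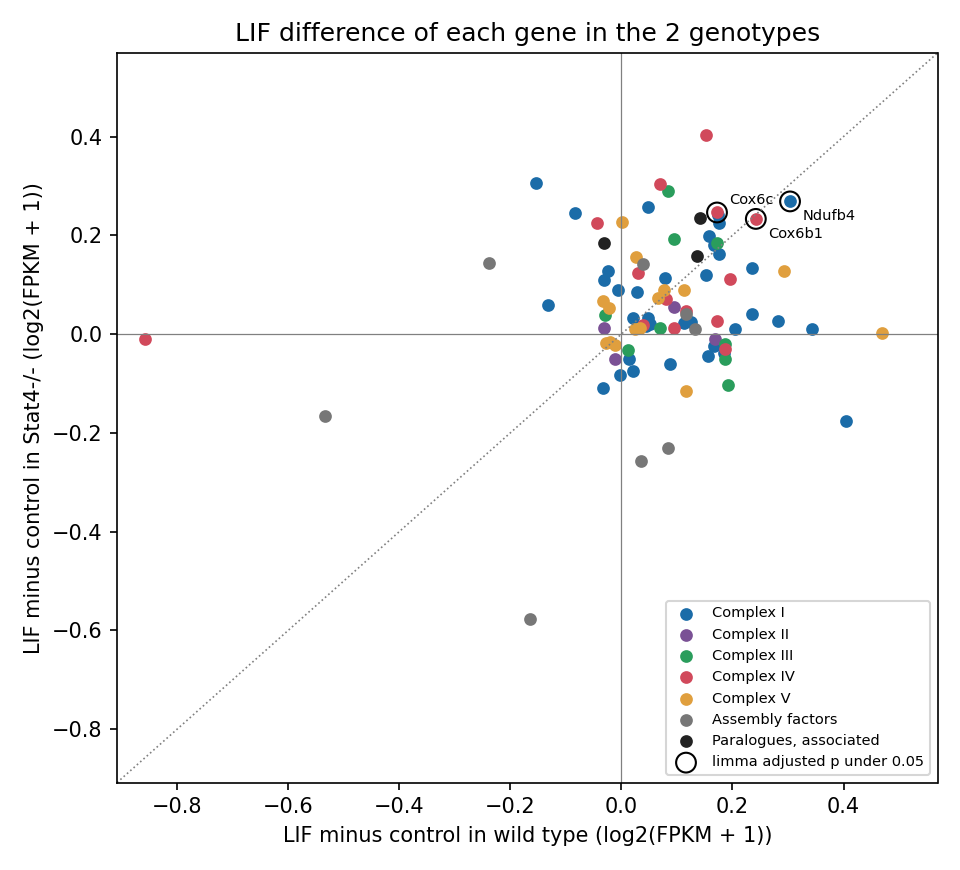
Difference of log2(FPKM + 1) between LIF and control in wild type (horizontal) and in Stat4-/- (vertical) for the 89 genes, coloured by complex, with circles around genes that passed limma at an adjusted p under 0.05 and a dotted line of equal difference. The upper right holds 51 genes and the lower left 9, and Cox6b1, Cox6c and Ndufb4 are circled.

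By complex, LIF differences in complex IV were upward for 12 of 14 genes in wild type and 12 of 14 in Stat4-/-, with medians of 0.11 and 0.09. The 142 short and abundant genes outside the chain had similar medians of 0.11 and 0.08, with 113 and 104 higher. Complex I had 28 and 27 of 36 higher, with medians of 0.10 and 0.04. Within it, the membrane arm had medians of 0.14 and 0.06 (18 and 15 of 20 higher) and the N module 0.05 and 0.05 (6 and 9 of 10). In complex III, 8 of 9 genes were higher in wild type (median 0.09) and 5 of 9 in Stat4-/- (median 0.01). Its 5 small subunits had a median of 0.19 in wild type and -0.02 in Stat4-/-. Its core subunits had medians of 0.04 and 0.03. Complex V had medians of 0.03 and 0.05 (10 and 11 of 15 higher), complex II 0.04 and 0.00 (2 and 2 of 4), and the assembly factors 0.04 and -0.08 (5 and 4 of 8).

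The peripheral stalk of complex V, which holds the head still against the rotor, was close to 0 in wild type (median 0.01) and higher in Stat4-/- (median 0.12, 4 of 4 genes). Atp5h was at 135, 135, 137 and 161 FPKM, with the Stat4-/- LIF library alone high. Atp5k, a small subunit of the membrane part, was at 56.7, 78.8, 73.6 and 73.7 FPKM, with the wild-type control library alone low. The same held for Ndufa12 and for Ndufa7 (66.4, 81.0, 75.7 and 77.1 FPKM). In Ndufa4 the Stat4-/- LIF library alone was high. A difference in LIF effect between the genotypes leaves no residual degree of freedom and was not tested. Its median over the 89 genes was -0.02, against -0.01 over all genes.

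**Figure D3:**
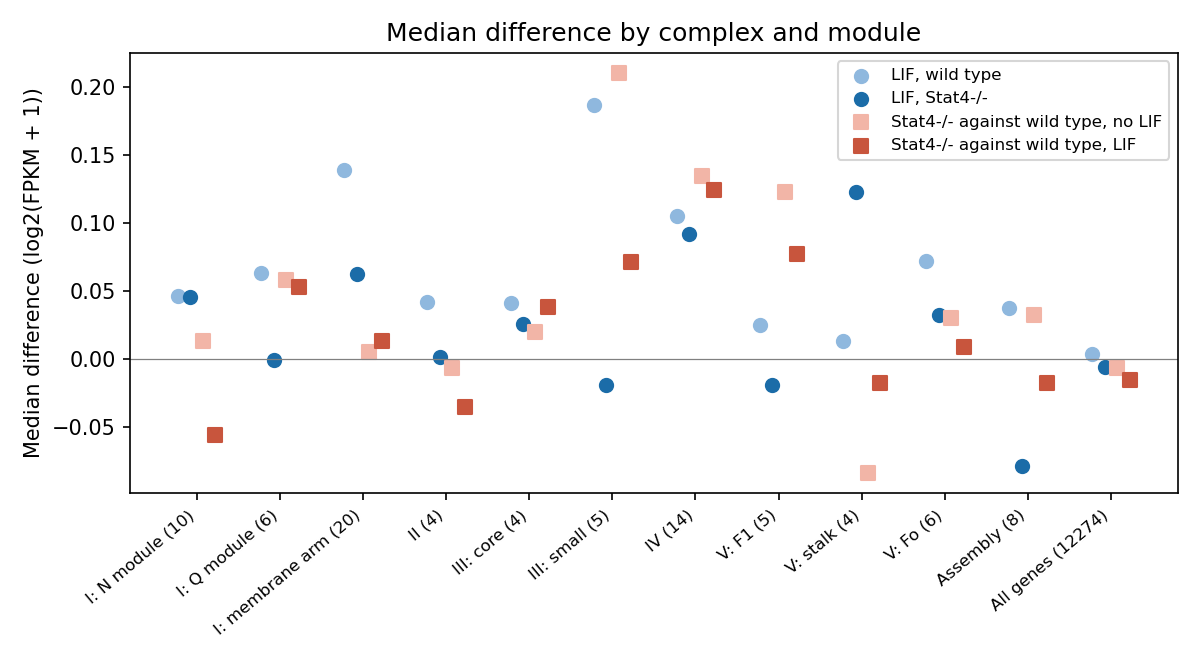
Median difference of log2(FPKM + 1) for each complex or module (number of genes in parentheses) and for all 12274 tested genes, for LIF against control in each genotype (circles) and Stat4-/- against wild type without and with LIF (squares). Complex IV has all 4 medians above 0.09, whereas those of all genes lie between -0.02 and 0.00. The 142 short and abundant genes outside the chain, not drawn here, have medians of 0.11, 0.08, 0.09 and 0.08 in the same order.

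Without LIF, 55 of 89 genes were higher in Stat4-/- than in wild type, against 48.5% of all genes, with a median of 0.04, against -0.01. With LIF, 50 of 89 were higher, against 46.1%, with a median of 0.01, against -0.02. Both Stat4-/- libraries lay above both wild-type libraries for 22 of 89 genes, against 24.4% of all genes, and below them for 13, against 28.9%. The limma fit called 15 genes higher in Stat4-/-, or 16.9%, against 7.81% of all genes, and 2 lower, or 2.25%, against 7.68%. Among the 142 short and abundant genes outside the chain 40.1% were called higher and 13.4% lower, against 30.8 and 0% of the 26 members of that kind. The genotype calls numbered 1 without the filter on low values and 0 without the variance trend. At an unadjusted p under 0.05 there were 30 members, or 33.7%, against 29.4% of all genes. The genotype comparison also carries the difference in Y-linked transcripts given above. Markers of absorptive colonocytes summed to 2666, 2596, 2454 and 2290 FPKM, with 6 of 8 lower in Stat4-/- and 1 higher by the same test. Of the general epithelial markers, 3 of 8 were lower and 0 higher. Of the smooth muscle markers, 4 of 5 were higher and 1 lower, and of the endothelial markers, 3 of 4 were higher and 0 lower. Their part in the genotype differences was not tested.

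Complex IV held 9 of the 17 calls. Of its 14 genes, 7 rose, or 50%, and 2 fell, or 14.3%, against 7.81 and 7.68% of all genes. Among the 142 short and abundant genes outside the chain the shares were 40.1 and 13.4%. Cox7c rose by 0.20 (SE 0.038, limma adjusted p = 0.00472), Cox8a by 0.20 (SE 0.042, limma adjusted p = 0.00787), Cox6c by 0.17 (limma adjusted p = 0.0125), Cox4i1 by 0.15 (limma adjusted p = 0.0141) and Cox6a1 by 0.14 (limma adjusted p = 0.0153). In each of these 5 genes Stat4-/- exceeded wild type in 2 of 2 treatments. Cox8a, a small subunit within the membrane, and Cox7c had both Stat4-/- libraries above both wild-type libraries, and so had Cox4i1 and Cox6a1, while the Cox6c values of the genotypes overlapped. Cox5b, a zinc-binding subunit, passed narrowly (180, 185, 198 and 200 FPKM, 0.12, limma adjusted p = 0.0484).

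Cox6b2 was higher at a low level (2.25, 2.61, 3.77 and 5.31 FPKM, 0.68, SE 0.125, limma adjusted p = 0.00374). The genes that fell were Cox5a and Cox7a1. Cox5a, which binds the matrix side of the complex, was at 172, 184, 157 and 158 FPKM and fell by 0.18 (SE 0.041, limma adjusted p = 0.0129), opposite in direction to Cox5b. Cox7a1 was at 17.0, 16.4, 12.5 and 14.8 FPKM and fell by 0.28 (SE 0.083, limma adjusted p = 0.0438), while 4 of 5 smooth muscle markers rose and the fifth, Acta2, fell (-0.30, limma adjusted p = 0.00481). Cidea, the 1 brown fat marker above the level for testing, also fell (3.39, 3.77, 2 and 1.24 FPKM, -0.82, limma adjusted p = 0.00419). The other brown fat markers were close to 0 in every library, with Ucp1 at 0.10, 0.49, 0.21 and 0.20 FPKM and Elovl3 at 0.28, 0.05, 0.09 and 0.09 FPKM. The part of smooth muscle or brown fat cells in the Cox7a1 difference was not tested. Of 6 striated muscle markers, 2 were above the level for testing and neither changed by the test.

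In complex I, 3 of 36 genes rose, or 8.33%, near the 7.81% of all genes, and 0 fell. The 3 belong to the membrane arm. Ndufa3 was at 55.0, 62.7, 77.6 and 75.6 FPKM and rose by 0.38 (SE 0.058, limma adjusted p = 0.00111), with a gap between the genotypes. The X-linked Ndufa1 was at 41.8, 48.3, 53.2 and 53.6 FPKM and rose by 0.25 (SE 0.059, limma adjusted p = 0.0157). The other 2 X-linked genes of the chain, Ndufb11 and Cox7b, had coefficients of 0.06 and 0.07 and did not pass. Ndufb5, at 21.1, 25.0, 26.7 and 27.5 FPKM, rose by 0.23 (limma adjusted p = 0.0415). Exons of Ndufa3 and Ndufb5 overlap those of Tfpt and Mrpl47 on the opposite strand, as do those of Cox4i1 and Cox6c with Emc8 and Vps13b. A strand-specific count is not stated, so reads of such pairs cannot be told apart.

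In complex III, Uqcr11 rose by 0.27 (SE 0.059, limma adjusted p = 0.0107). In complex V, Atp5b rose by 0.12 (limma adjusted p = 0.0326), Atp5g2 by 0.16 (limma adjusted p = 0.0414) and Atp5e, the epsilon subunit of the central stalk, by 0.18 (SE 0.040, limma adjusted p = 0.00984). Atp5e was at 133, 130, 151 and 149 FPKM, with the genotypes apart and little difference between treatments. Cox7a2l rose by 0.18 (SE 0.048, limma adjusted p = 0.0266). No complex II gene (0 of 4) and no assembly factor (0 of 8) passed in either effect by limma at an adjusted p under 0.05. At an unadjusted p under 0.05, complex II had 0 genes in either effect, and the assembly factors had 2 for LIF and 0 for genotype, where 12.5 and 29.4% of all genes had such a p.

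Several genes with low genotype coefficients did not pass. Ndufv2, an iron-sulfur subunit next to Ndufv1, was at 39.6, 38.9, 33.6 and 36.9 FPKM (-0.15, limma adjusted p = 0.111), with both Stat4-/- libraries below both wild-type libraries. Of the peripheral stalk of complex V, Atp5j was at 121, 118, 109 and 114 FPKM (-0.10, limma adjusted p = 0.165) and Atp5f1 at 102, 104, 91.4 and 102 FPKM (-0.09, limma adjusted p = 0.215). Ndufaf1, which acts early in complex I assembly, was at 9.09, 9.34, 9.09 and 7.44 FPKM (-0.15).

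**Figure D4:**
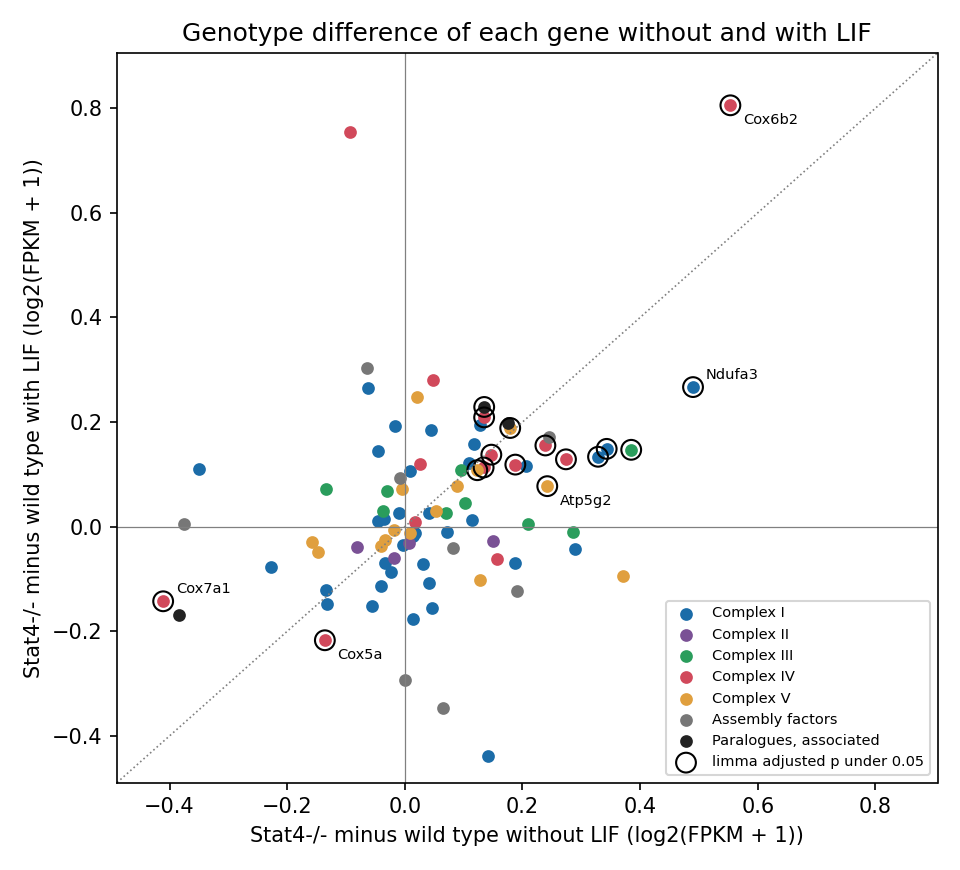
Difference of log2(FPKM + 1) between Stat4-/- and wild type without LIF (horizontal) and with LIF (vertical) for the 89 genes, coloured by complex, with circles around the 17 genes that passed limma at an adjusted p under 0.05, named where they stand apart. Of the circled genes, 15 lie in the upper right, and Cox5a and Cox7a1 lie in the lower left.

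Differences went with transcript length across the whole table. Of the 88 members with a transcript length, 38 had a longest annotated transcript under 1000 bases, as had 477 other tested genes. In these short genes outside the chain the median LIF difference was 0.10 in wild type and 0.04 in Stat4-/-, and the median genotype difference was 0.05 without LIF and 0.00 with it. The 38 short members had medians of 0.12, 0.06, 0.11 and 0.07. Of the short genes outside the chain, limma called 6.92% higher with LIF and 18.0% higher in Stat4-/-, against 5.26 and 26.3% of the short members. The 142 that were also abundant had medians of 0.11, 0.08, 0.09 and 0.08, and the 26 members of that kind had 0.17, 0.04, 0.13 and 0.04. With longest annotated transcripts of at least 2000 bases, 9409 other genes had medians of -0.01, -0.01, -0.02 and -0.02, and 20 members had 0.04, 0.05, 0.01 and 0.00. Not all of these 20 are long by the transcript that the annotation marks as principal. Atp5l had 6310 bases by the longest and 544 by the principal transcript, Ndufb7 4435 and 623, and Cox6c 3038 and 738. Atp5g1 had 4715 by both. When each library was centred on the short genes, the median over all members was 0.01 for LIF in wild type, 0.03 for LIF in Stat4-/-, 0.00 for genotype without LIF and 0.04 with LIF, and the limma calls numbered 1 for LIF and 10 for genotype. The part of transcript length in the differences was not tested further.

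**Figure D5:**
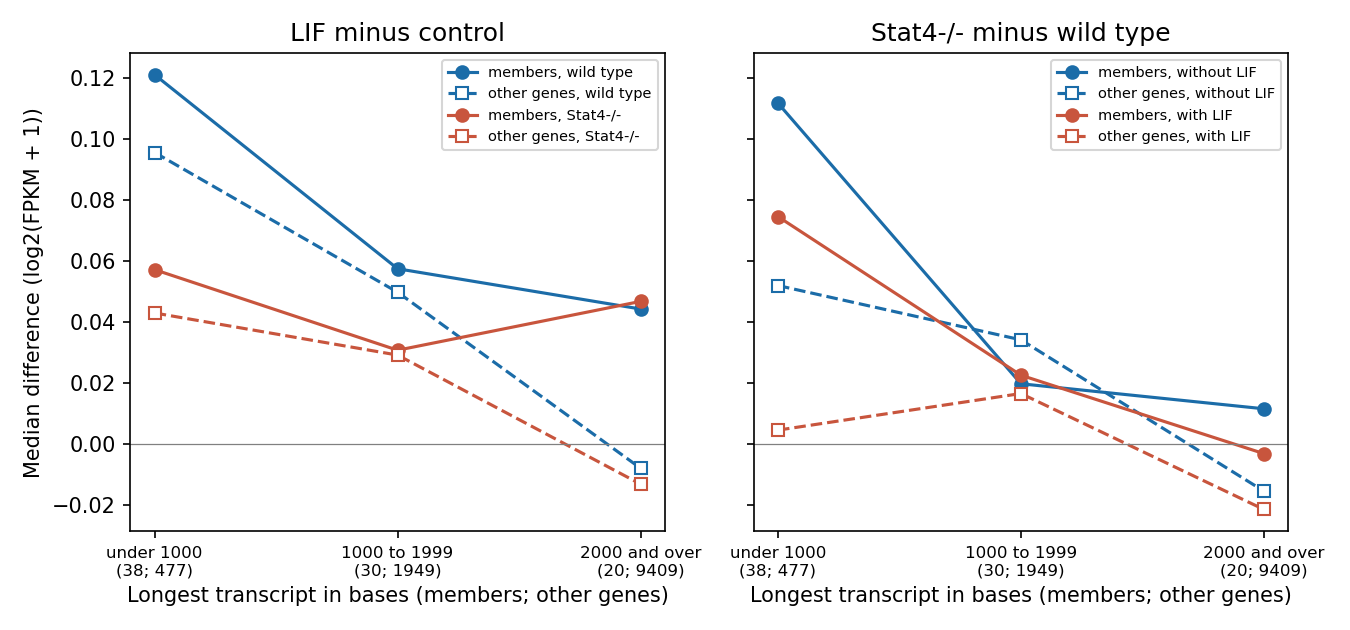
Median difference of log2(FPKM + 1) by length of the longest annotated transcript in bases (numbers of members and of other genes in parentheses) for LIF against control (left) and Stat4-/- against wild type (right), with members as filled circles and other genes as open squares. Other genes go from medians of up to 0.10 under 1000 bases to medians below 0 at 2000 bases and over.

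Other lists of mitochondrial genes were set beside the members. Of 77 mitochondrial ribosomal protein genes, 1 rose with LIF (Mrpl53, at 33.1, 40.6, 32.2 and 39.6 FPKM, 0.29, limma adjusted p = 0.0414) and 0 fell, with medians of 0.06 in wild type and 0.01 in Stat4-/-. By genotype 7 of them rose and 4 fell, against the 7.81 and 7.68% of all genes. Of 38 assembly and electron carrier genes outside the rule, 0 were called for LIF by limma. By genotype 1 rose and 1 fell, or 2.63% each, against 7.81 and 7.68% of all genes. At an unadjusted p under 0.05 for LIF there were 11 of 38, or 28.9%, against 12.5% of all genes and 32.6% of members. Their LIF medians of 0.08 in wild type (24 of 38 higher) and 0.04 in Stat4-/- (23 of 38) lay near those of the members. Cox18, which inserts a mitochondrially encoded complex IV subunit into the membrane, was the gene that rose (0.29), and Sdhaf3, a complex II assembly factor, the gene that fell (-0.67).

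Genes of the tricarboxylic acid cycle and pyruvate dehydrogenase had medians of -0.02 and 0.03 for LIF and of -0.08 and -0.02 for genotype. Of these 18, limma called 0 for LIF (0 at an unadjusted p under 0.05). By genotype 1, Pcx, was lower, or 5.56%, against 7.68% of all genes. Of 18 regulators of mitochondrial biogenesis, limma called 0 in either effect. It gave an unadjusted p under 0.05 to 0 of them for LIF and to 2, or 11.1%, for genotype. The shares of all genes were 12.5 and 29.4%. Among 17 carriers and porins, LIF medians were 0.03 in wild type (12 higher) and 0.08 in Stat4-/- (13 higher). For LIF there were 0 calls by limma and 5 genes at an unadjusted p under 0.05, or 29.4%, against 12.5% of all genes. By genotype 2 rose, or 11.8%, and 4 fell, or 23.5%, against 7.81 and 7.68% of all genes. Slc25a20, the carnitine-acylcarnitine carrier, fell by 0.46 (limma adjusted p = 0.00017), and Tomm40, the channel of the outer membrane import complex, rose by 0.24 (limma adjusted p = 0.0100).

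Beside the Ndufa4 and Ndufa4l2 values stands AA467197 (synonym Nmes1), a further paralogue of Ndufa4, at 90.6, 109, 65.4 and 61.1 FPKM. It fell in Stat4-/- by 0.64 (SE 0.070, limma adjusted p = 0.000114), with the genotypes well apart, while Ndufa4 had a genotype coefficient of 0.16 and did not pass (limma adjusted p = 0.0571). Of the summed FPKM of the 3 paralogues, AA467197 made up 38.7, 41.9, 30.5 and 25.0%. In the same list of 10 paralogues, inhibitors and hypoxia genes, Usmg5, a small complex V subunit whose symbol lies outside the rule, rose by genotype (0.17, limma adjusted p = 0.0211), as did Pdk4 (0.62), which restrains pyruvate oxidation, and Lonp1 (0.22), a matrix protease, while Higd2a fell (-0.33).

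The promoters of 4 called genes are shown because their mRNAs moved with LIF (Ndufb4 and Cox6b1) or in opposite directions with genotype (Cox6a1 up, Cox5a down). Each is the 250 bases before the transcription start in RefSeq on GRCm38.p6, written 5′ to 3′ in the direction of transcription. Capitals mark matches, on either strand, to the NRF1 motif, CCGGAAG (ETS factors such as GABP), AAGATGG (YY1), TCAAGGTCA (ERR receptors) or CCAAT (NF-Y). NRF1 and GABP are known regulators of nuclear respiratory genes.
Ndufb4, chr16:37654369-37654618, minus strand: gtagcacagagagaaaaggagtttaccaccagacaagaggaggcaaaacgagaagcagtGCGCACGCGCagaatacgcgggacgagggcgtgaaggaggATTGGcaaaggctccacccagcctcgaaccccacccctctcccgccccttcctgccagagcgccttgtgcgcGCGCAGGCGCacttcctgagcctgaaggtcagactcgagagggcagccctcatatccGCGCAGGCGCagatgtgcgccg
Cox6b1, chr7:30626115-30626364, minus strand: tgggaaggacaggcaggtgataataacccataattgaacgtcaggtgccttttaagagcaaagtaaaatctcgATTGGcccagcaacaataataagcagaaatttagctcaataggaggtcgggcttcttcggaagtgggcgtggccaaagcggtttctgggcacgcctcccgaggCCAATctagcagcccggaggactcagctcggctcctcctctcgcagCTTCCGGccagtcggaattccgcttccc
Cox6a1, chr5:115348959-115349208, minus strand: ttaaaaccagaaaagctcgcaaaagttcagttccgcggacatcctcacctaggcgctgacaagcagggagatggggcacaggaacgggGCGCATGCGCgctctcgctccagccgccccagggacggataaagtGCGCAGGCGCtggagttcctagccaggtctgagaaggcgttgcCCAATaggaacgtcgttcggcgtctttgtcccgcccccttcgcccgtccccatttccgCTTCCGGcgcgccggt
Cox5a, chr9:57520982-57521231, plus strand: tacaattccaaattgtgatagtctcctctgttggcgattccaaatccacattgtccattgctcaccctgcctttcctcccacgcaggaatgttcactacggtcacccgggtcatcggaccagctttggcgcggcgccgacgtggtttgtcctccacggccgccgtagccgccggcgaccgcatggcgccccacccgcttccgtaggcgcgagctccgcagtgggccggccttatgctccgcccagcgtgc

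Ndufb4 holds 3 NRF1 matches and 1 CCAAT box. Cox6b1 holds 1 ETS match and 2 CCAAT boxes, Cox6a1 holds 2 NRF1 matches, 1 ETS match and 1 CCAAT box, and the Cox5a window holds 0 matches. Of other genes that rose by genotype, Cox5b, Cox7a2l, Ndufa1, Ndufb5, Cox7c and Ndufa3 also held 0 matches before the start. Atp5b, Atp5e, Atp5g2, Cox6b2, Cox8a and Uqcr11, which also rose, held from 1 to 5. Cox7a1, which fell, held 2 CCAAT boxes. RefSeq windows of 250 bases before to 50 after the start were matched for 71 of the 89 genes, and for 9448 tested genes. The NRF1 motif stood in 26.8% of member genes, against 11.2% of tested genes and 4.6% of all 32851 windows. For CCGGAAG the shares were 23.9, 19.5 and 8.86%, for AAGATGG 14.1, 8.43 and 6.34%, for TCAAGGTCA 2.82, 0.286 and 0.423%, and for CCAAT 43.7, 42.1 and 37.4%. Of the 15 genes called by genotype with a window, 2 held the NRF1 motif and 4 the ETS motif, and of the 2 called for LIF with a window, 1 held each. These are matches of letters and no evidence of binding.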

How the data were processed

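RNA was measured in 4 libraries of mouse colonic epithelial cells, 1 per group, grouped by the sample titles. A TruSeq kit was used on total RNA, per the labels' protocols, and HISAT, Bowtie2 and mm10 are named in the submitters' processing notes; what computed FPKM is not given in the sources used here. Values were deposited as FPKM, per the file headers, with 0 value columns unused and 0 genes of the mitochondrial genome listed. The design text mentions duplicates, and whether a column pools them is not stated.

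log2(FPKM + 1) of the genes averaging 1 FPKM or more was fitted in limma 3.58.1 (R 4.3.3) by an additive model of treatment and genotype, with the variance trended on the mean (1 residual degree of freedom, prior 10.2). A log2 fold change on this scale understates the change of low genes. In simulated data for the LIF effect on 12274 genes, 57 of 100 genes changed by 0.3 and 100 of 100 changed by 1 on the log2 scale were recovered, with 6 false calls among 163. The p-values do not measure a spread within a group, as each group has 1 library. Their error comes from the difference in LIF effect between genotypes and, with the larger weight, from the variance trend over all genes. Differences between these libraries may be technical. Depth came from low values of genes with 1 transcript of 300 to 1500 bases, where 53.3 to 59.9% of values came within 0.15 of whole fragments, and is approximate. At that depth the counting error of a LIF difference was 0.052 on the log2 scale for the median member (0.013 to 0.472). Positions, transcript lengths and shared 31-base words came from GENCODE M21 on mm10, where 87 members matched once; 0 members shared over 50% of their words with another listed gene, 1 (Ndufaf2) did with any annotated gene, and 21 overlapped an exon of a listed gene on the opposite strand.

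Members, lists and motifs were chosen with earlier results of these data known. All members could be named, with values for called genes, the 3 highest and the lowest of each complex by level, the 2 highest and 2 lowest by each coefficient, and isoform pairs. Of the other lists, calls could be named. The values of 1 member that the rule would name are not reported here. Promoters are RefSeq windows on GRCm38.p6. Alternatives changed the pseudocount (0.1), the filter, the scaling, the variance trend, the length class and the members.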

Additional observations from a re-analysis of the deposited data

Results flagged for a closer look

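Ndufv3 and Ndufs4, both of the NADH-oxidising module of complex I, had LIF differences of opposite sign in the genotypes, each of at least 0.15 on the log2 scale, a limit set with the values known. Ndufv3 was at 31.6, 42.2, 35.0 and 30.8 FPKM, and its LIF difference in Stat4-/- was lower than that in wild type by a log2 value of -0.58. Ndufs4 was at 28.9, 25.8, 22.4 and 28.0 FPKM, and the same value was 0.46. With 1 library per group these differences between genotypes were not tested. Among all 89 genes, 29 had LIF differences of opposite sign.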

How the results depend on the processing

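No paired analysis was possible because every group has a single library with replicate number 1, so that the groups share fewer than 2 numbers. The 3 calls for LIF became 1 with a pseudocount of 0.1, 1 with centring on genes with transcripts under 1000 bases, and 0 without a filter on low values, with median-of-ratios scaling, with quantile normalization or without the variance trend. Cox6b1 and Ndufb4 each passed in 2 of 7 alternative fits and Cox6c in 1. The 17 genotype calls became 10 with that centring, 8 with quantile normalization, 1 without a filter and 0 without the variance trend. Ndufa3 passed in 6 of 7 fits, and Cox7c, Cox8a, Cox5a and Atp5e each in 5. Restricted to members with a longest annotated transcript of at least 1000 bases, chosen after seeing the data, the calls were 1 for LIF and 6 for genotype among 50 genes. The LIF call was Cox6c, whose principal transcript has 738 bases. Of the genotype calls, Cox6c, Cox5a (645 bases) and Atp5e (421 bases) were under 1000 by the principal transcript, and Atp5b, Cox7a2l and Ndufb5 were not. This restriction thus did not remove all short genes. Centring on short genes took the median LIF difference in wild type from 0.08 to 0.0076, the genotype median without LIF from 0.04 to -0.0039 and the median difference of LIF effects from -0.02 to 0.052. The cause was not tested. No coefficient of a called gene changed sign in any fit it entered. Leaving out a library leaves no residual degree of freedom, so only values can be given: the median LIF coefficient of 0.08 then ran from 0.04 to 0.08, and the genotype coefficient of 0.04 from 0.01 to 0.04. These values are the medians of the single differences already given, so they are no further check. Leaving out assembly factors changed no call, and 0 members shared enough words with a listed gene to be left out. Depth limits single members unequally, with a counting error of 0.013 to 0.472 for a LIF difference.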
